A study of Mus musculus with 15 samples.

Results

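Heterotrimeric G proteins, the proteins that regulate them and a few Ras-like GTPases were examined in the suprachiasmatic nuclei (SCN), the hypothalamic nuclei that hold the central circadian clock of mammals. Members were chosen by name. They were genes called Rgs plus digits, genes whose names begin with Gnai, Gnao, Gnas, Gnaq, Gnaz, Gnal, Gna1, Gnb plus a digit, Gng or Gpsm, and Rasd1, Rasd2 and Rasl11b. A mean of at least 1 CPM (counts relative to library size) over the 15 libraries was also required. Of the 24419 genes in the table, 59 matched the names and 51 reached that level. The 8 below it were Rgs1, Rgs13, Rgs18, Rgs21, Gna14, Gnb3, Gngt1 and Gngt2. All 51 members passed the filter on low counts and were tested. They comprised 17 RGS genes, 12 G alpha, 4 G beta and 10 G gamma subunits, 3 Gpsm genes and 3 Ras-like genes. Gnb1l and Gnb2l1 also matched by name. Gnb2l1 encodes RACK1, a ribosome-associated scaffold that is no subunit of a G protein, and Gnb1l encodes a protein related to G beta by sequence.

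RNA was sequenced from punches of the SCN of C57BL/6 mice aged 8 to 12 weeks, with 2 to 4 punches pooled in each library. The mice were labelled as double knockouts (DKO) of the REV-ERBs alpha and beta, nuclear receptors that repress transcription within the circadian clock, or as controls. The sources used here do not give how and in which cells the receptors were deleted. Tissue was taken at circadian time (CT) 16, in the subjective night, from 4 DKO and 5 control pools, and at CT4, in the subjective day, from 3 DKO and 3 control pools.

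Receptors coupled to G proteins make a G alpha subunit exchange GDP for GTP and part from its G beta-gamma partner, after which both act on effectors. Alpha subunits of the Gs class raise cyclic AMP, those of the Gi class lower it, and those of the Gq class activate phospholipase C beta. RGS proteins (regulators of G protein signalling) end the signal by speeding the hydrolysis of GTP on G alpha. Gpsm proteins bind G alpha of the Gi class in its GDP form. In the mouse SCN, RGS16 is known as a rhythmic protein of the dorsomedial neurons that limits Gi signalling and so lets cyclic AMP rise, and the orphan receptor GPR176, which couples to Gz, acts on the same second messenger. The receptor for vasoactive intestinal peptide, a transmitter within the nucleus, couples to Gs, and RASD1 (Dexras1) takes part in responses of the clock to light.

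Total counts ran from 32580803 to 68757624 per library. All 10 SCN neuron markers had counts in every library. Their summed level was 616 to 861 CPM in DKO and 527 to 1125 CPM in control libraries at CT16, and 764 to 823 CPM in DKO and 876 to 1075 CPM in control libraries at CT4, where the groups did not overlap. The punches also held neighbouring tissue. DKO CT16 replicate 3 had the lowest SCN score of its group and a neighbouring-nuclei score of 0.911 (mean log2 CPM of the markers, each relative to its mean over the 15 libraries) against -0.796 or less in the other 3. DKO CT16 replicate 4 had the highest myelin score (1.64), and in control CT4 replicate 1 the neighbouring-nuclei score was 0.626, against -0.968 and -0.426. Results that rest on these 3 libraries are also given without them. Other libraries with similar scores were kept. The neighbouring-nuclei score was 1.073, 0.841 and 0.594 in the DKO CT4 libraries and 0.706 in control CT16 replicate 5. The SCN scores of the DKO CT4 libraries were -0.516, -0.572 and -0.638, beside -0.616 in DKO CT16 replicate 3. Nr1d1, which encodes REV-ERB alpha, was counted at 241 to 378 CPM in DKO and 135 to 150.3 CPM in control libraries at CT16, and at 226 to 252 CPM in DKO and 198 to 282 CPM in control libraries at CT4. Nr1d2, which encodes REV-ERB beta, had 198 to 259 CPM in DKO and 96.7 to 118 CPM in control libraries at CT16, and 163 to 180.5 CPM in DKO and 116 to 130.2 CPM in control libraries at CT4, higher in DKO without overlap at both times. Counts sum all exons, so they cannot serve as a check of genotype.

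Levels differed widely within each class. Levels between genes were set out as RPKM, CPM divided by the exonic length in kilobases. Gnas, which encodes Gs alpha, had the highest level of the 51 members with a mean of 266.5 RPKM over the 15 libraries, followed by Gnb1 (146.0 RPKM) and Gnb2 (143.1 RPKM), G beta subunits, and Gnai2 (139.6 RPKM), a Gi alpha subunit. Gnb2l1 averaged 133.9 RPKM. Within the other classes, Gng3 led the G gamma subunits with 85.9 RPKM, Gna11 the Gq class, Gna12 the G12 class, Gpsm1 the Gpsm genes, and Rgs10, Rgs11 and Rgs17 the R12, R7 and RZ subfamilies of RGS genes. Rgs16 had the highest mean of the RGS genes (70.5 ± 51.5 RPKM, SD, n = 15 libraries), with libraries from 19.4 to 187.1 RPKM. The lowest member was Gna15 with 0.792 RPKM.

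**Figure D1:**
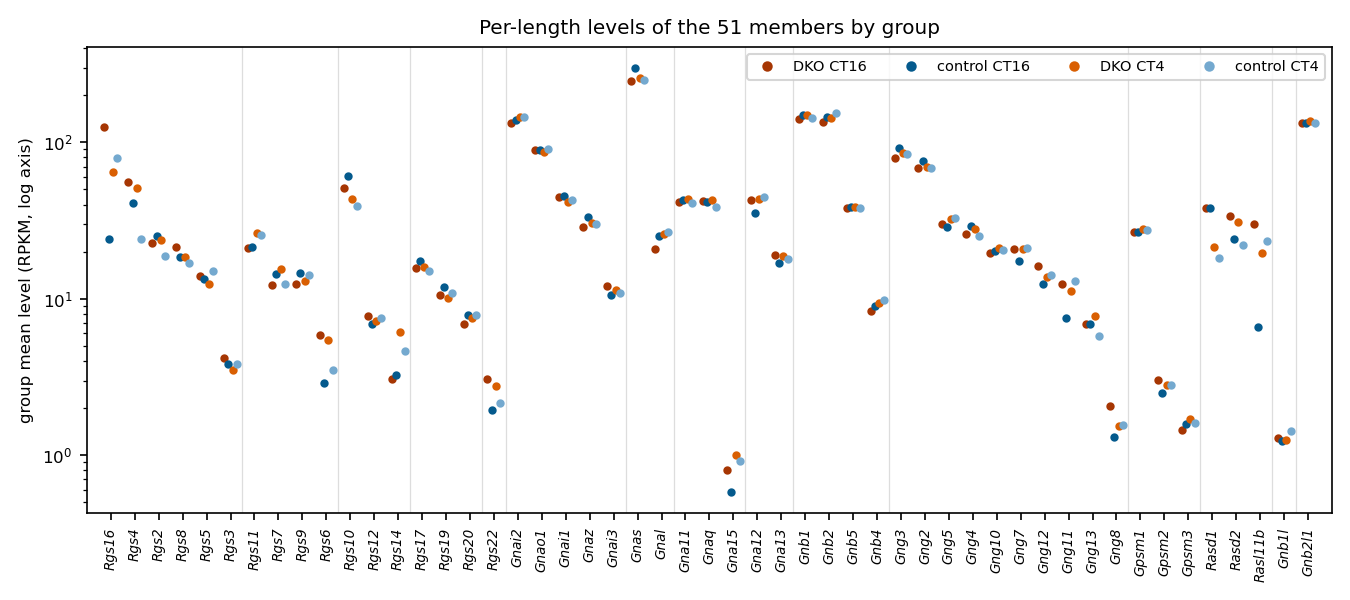
Mean level of each member in RPKM (log axis) in DKO CT16, control CT16, DKO CT4 and control CT4 libraries, ordered by role; points are group means. Gnas lies highest (266.5 RPKM over all libraries) and Gna15 lowest (0.792 RPKM), and the group means of Rgs16 lie farther apart than those of Gnas.

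Most members kept to a narrow band over all libraries. The highest CPM was within 2-fold of the lowest for 37 of the 51 members. It was more than 4-fold above the lowest for 6, which were Rasl11b (11.1-fold), Rgs16 (9.66-fold), Gng8, Gna15, Gng11 and Rgs14. Summed over its 12 members, G alpha amounted to 719.8 ± 27.4 RPKM in DKO and 777.5 ± 18.4 RPKM in control libraries at CT16 (SD, n = 4 and 5), and to 747.1 ± 8.03 RPKM in DKO and 739.6 ± 13.2 RPKM in control libraries at CT4 (SD, n = 3 each). The summed level of the 17 RGS genes was 393.8 ± 42.9 RPKM in DKO and 289.7 ± 25.4 RPKM in control libraries at CT16, and 327.5 ± 4.72 RPKM in DKO and 301.1 ± 18.1 RPKM in control libraries at CT4. The RGS sums of the 4 DKO libraries at CT16 (331.3 to 422.6 RPKM) all lay above those of the 5 control libraries (247.1 to 314.1 RPKM). Single genes weighed heavily in these sums. At CT16 Rgs16 alone had a mean of 126.1 RPKM in DKO and 24.1 RPKM in control libraries. Gnas had 245.8 RPKM in DKO and 297.5 RPKM in control libraries. The sums therefore do not describe a shift of either class as a whole.

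The comparison of DKO with control at CT16 asked which members differed with genotype in the subjective night. Transcripts of Rgs16, Rasl11b and Rgs6 stood 5.23-fold, 4.50-fold and 2.01-fold higher in DKO, and smaller rises were found for Rgs22, Rasd2, Gng12 and Gng7. Gnas, Gng3 and Rgs9 were lower in DKO, by 1.21-fold, 1.16-fold and 1.17-fold. In all, 10 of the 51 members (19.6%) passed the threshold, while 4.66% of the 16910 genes tested did (edgeR quasi-likelihood test, adjusted p under 0.05). Of the members 7 were higher and 3 lower, beside 2.83% and 1.83% of all genes. Their median log2 fold change was -0.01, against 0.00 over all tested genes, and 35 members lay within 0.25 of 0. The DKO and control libraries did not overlap for 6 members (Rgs16, Rasl11b, Rgs6, Rgs22, Rgs12 and Rgs9), which is 11.8% beside 6.97% of all genes. In bulk tissue, fewer cells of a type and less RNA per cell cannot be told apart, which holds for every difference given here.

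**Figure D2:**
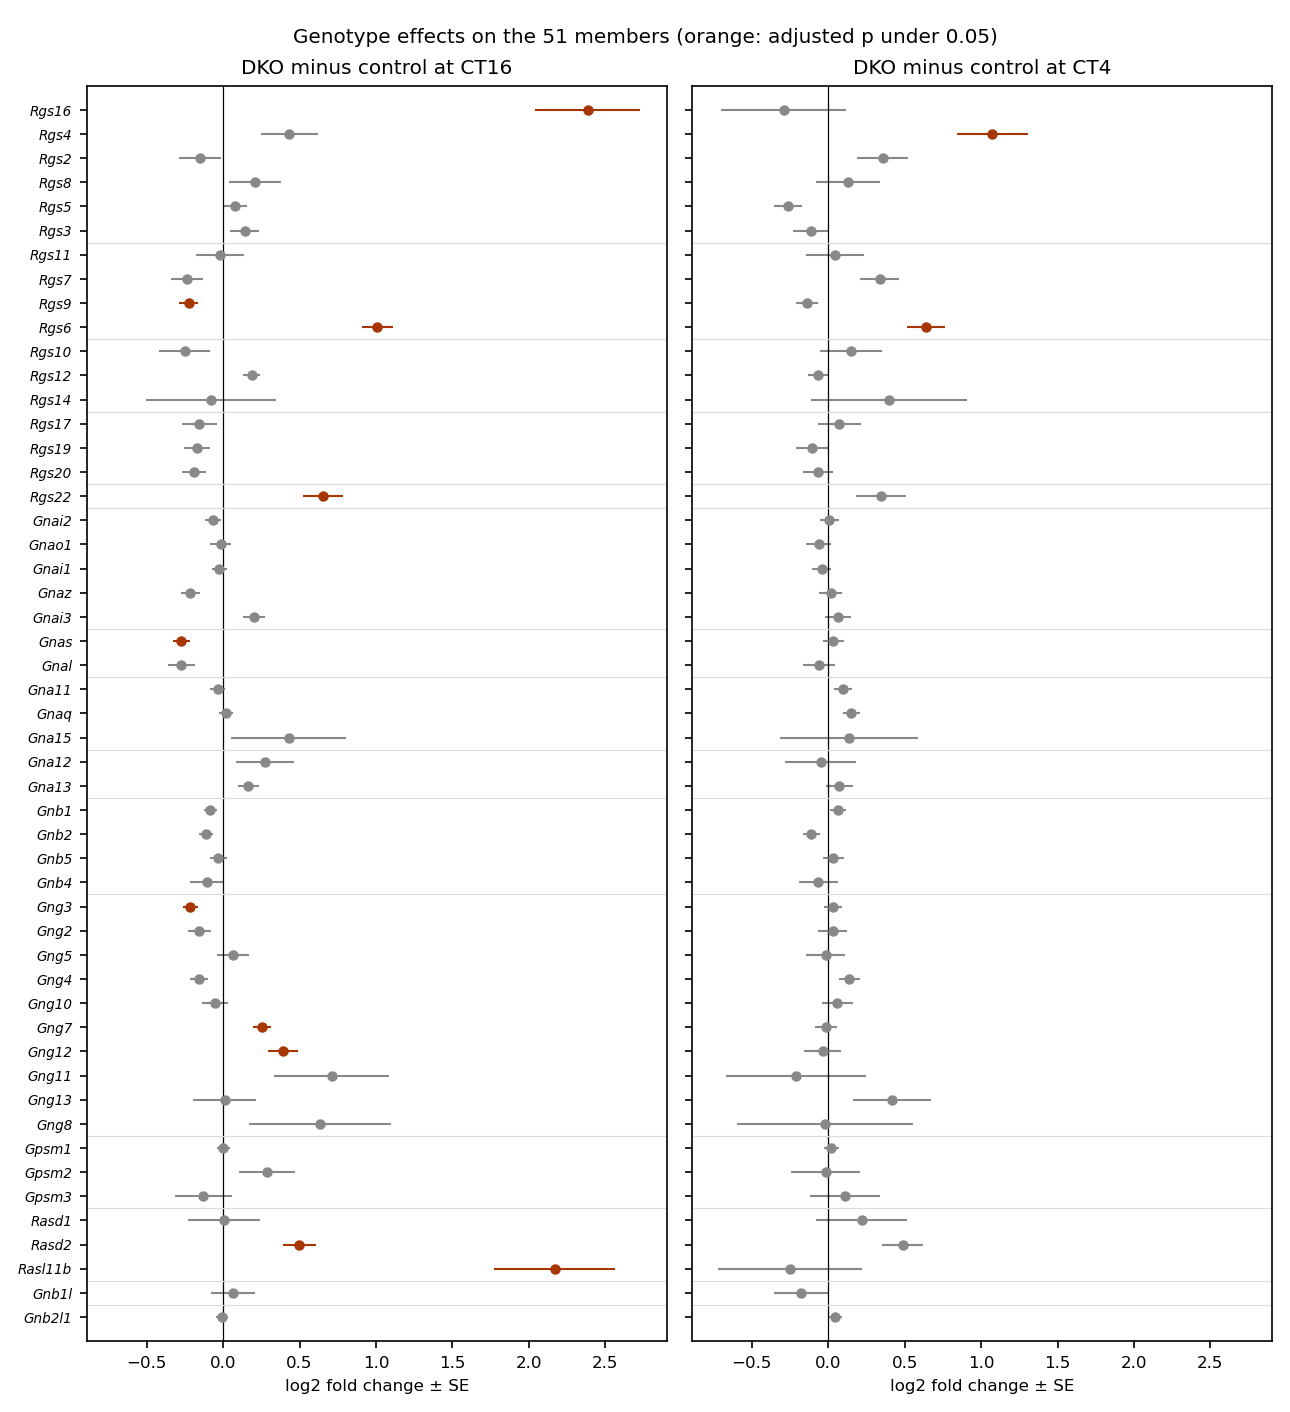
Log2 fold change ± SE of DKO minus control at CT16 (left) and at CT4 (right) for the 51 members, grouped by role; orange points passed an adjusted p of 0.05. At CT16, 7 members lie to the right and 3 to the left of 0 in orange, with Rgs16 (2.39) and Rasl11b (2.17) farthest out; at CT4 only Rgs4 (1.07) and Rgs6 (0.64) are orange.

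Rgs16 belongs to the R4 subfamily, small RGS proteins that act on the Gi and Gq classes. It lies on chromosome 1 (153740353 to 153745468, plus strand, mm10). At CT16 it was counted at 232, 391, 119 and 437 CPM in the DKO libraries, and at 62.9, 61.6, 53.7, 57.9 and 45.2 CPM in the control libraries. Every DKO library lay above every control library, the closest being DKO replicate 3. The rise was 2.39 ± 0.34 on the log2 scale (edgeR quasi-likelihood test, adjusted p = 0.00194) and passed the threshold in each of 27 alternatives, with values of 1.87 to 2.65. Without the 3 libraries that stood apart it was 2.47 (adjusted p = 0.000156). With the SCN neuron score as a covariate it was 2.31 and with the myelin score 2.01.

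At CT4 the difference in Rgs16 did not pass the threshold. Its level was 143, 143 and 168 CPM in DKO and 108, 242 and 206 CPM in control libraries. Control replicates 2 and 3 lay above the DKO range, and replicate 1, which stood apart in its neighbouring-nuclei score, lay below it. The difference was -0.29 ± 0.41 (edgeR, adjusted p = 0.801). Its sign depended on the covariates, with 1.09 (adjusted p = 0.216) when the SCN neuron score was included and 0.57 (adjusted p = 0.4905) with the neighbouring-nuclei score. At CT4 the SCN neuron score itself did not overlap between genotypes (-0.638 to -0.516 in DKO, -0.09 to 0.706 in control). With this score as a covariate, punch makeup and genotype therefore cannot be told apart at CT4, here and for the genes below. Six6, 1 of its markers, was also lower at CT16 than at CT4 in control (-0.99 ± 0.25, edgeR, adjusted p = 0.0467).

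Rgs16 also differed in its rank among the RGS genes. Its share of the summed RGS level in RPKM was 24.8%, 39.8%, 15.3% and 44.3% in the DKO libraries at CT16, and 9.31%, 10.7%, 7.68%, 8.30% and 6.16% in the control libraries. At CT4 the share was 18.4%, 18.9% and 22.2% in DKO and 16.5%, 33.0% and 28.6% in control libraries. It ranked 1 of the RGS genes in every library at CT4 and in 3 of the 4 DKO libraries at CT16, and 3 to 6 in the control libraries at CT16.

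The promoter of Rgs16 is shown because it is the member with the highest fold change, followed by those of Rasl11b, Rgs4 and Rasd2, which also differed with genotype. Each runs from 250 bases before to 50 bases after the annotated start, from RefSeq on GRCm38.p6, and capitals mark any motif found. The Rgs16 window is chr1:153740103-153740402 (plus strand), that of Rasl11b chr5:74195076-74195375 (plus strand), that of Rgs4 chr1:169747593-169747892 (minus strand) and that of Rasd2 chr8:75213694-75213993 (plus strand).
Rgs16: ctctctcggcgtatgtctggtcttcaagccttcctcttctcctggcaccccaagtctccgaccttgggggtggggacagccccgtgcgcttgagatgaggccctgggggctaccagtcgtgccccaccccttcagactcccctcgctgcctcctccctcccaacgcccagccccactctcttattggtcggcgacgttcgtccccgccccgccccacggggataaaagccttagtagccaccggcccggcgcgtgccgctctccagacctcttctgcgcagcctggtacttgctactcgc
Rasl11b: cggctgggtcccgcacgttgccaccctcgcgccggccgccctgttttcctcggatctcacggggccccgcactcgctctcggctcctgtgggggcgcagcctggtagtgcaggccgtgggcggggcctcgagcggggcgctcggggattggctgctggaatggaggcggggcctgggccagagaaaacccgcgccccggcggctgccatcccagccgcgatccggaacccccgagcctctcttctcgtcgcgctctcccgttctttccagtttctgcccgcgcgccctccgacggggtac
Rgs4: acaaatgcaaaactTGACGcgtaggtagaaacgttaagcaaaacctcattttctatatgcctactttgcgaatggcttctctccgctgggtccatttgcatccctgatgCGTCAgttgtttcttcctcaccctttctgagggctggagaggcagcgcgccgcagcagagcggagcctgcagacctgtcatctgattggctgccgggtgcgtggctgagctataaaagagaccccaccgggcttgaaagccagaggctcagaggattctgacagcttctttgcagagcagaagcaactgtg
Rasd2: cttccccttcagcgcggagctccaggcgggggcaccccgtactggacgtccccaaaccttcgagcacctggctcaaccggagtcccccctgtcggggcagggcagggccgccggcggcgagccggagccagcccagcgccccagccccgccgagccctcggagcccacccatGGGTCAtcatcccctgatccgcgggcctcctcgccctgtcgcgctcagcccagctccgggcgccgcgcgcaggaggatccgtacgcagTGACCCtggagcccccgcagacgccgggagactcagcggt

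The letters searched on both strands were the short sites AGGTCA and GGGTCA that REV-ERBs and RORs can bind, the E-box CACGTG, the D-box forms TTATGTAA and TTACGTAA, the cyclic AMP response element TGACGTCA and its shorter form TGACG, which the full element contains. None was found in the Rgs16 and Rasl11b windows. The Rgs4 window held TGACG at 236 and 141 bases before the start. The Rasd2 window held GGGTCA at 78 bases before the start and once more, on the other strand, after it. The windows shown are a choice among the members that differed with genotype. Of the others, Rgs6, Rgs9 and Gng3 had windows without any motif, and at least 1 window of Gng12, Gng7 and Gnas held a motif. No window was matched for Rgs22, which was therefore not searched. Of 32851 promoters of the same length, 16.3% held AGGTCA, 13.7% GGGTCA, 7.15% the E-box, 0.938% and 0.119% the D-box forms, 1.79% TGACGTCA and 20.8% TGACG. RefSeq windows were matched for 40 members, some with several starts. Of their 56 windows 8.93% held AGGTCA, 19.6% GGGTCA, 10.7% the E-box and 23.2% TGACG, and 0 held a D-box form or TGACGTCA. A match describes letters and does not show binding.

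Rgs8 is the chromosomal neighbour of Rgs16, 42687 bases away on chromosome 1, and belongs to the same subfamily; it was chosen for this after values were seen. At CT16 it was counted at 137, 158, 110.0 and 93.5 CPM in DKO and 124, 90.7, 133, 112 and 80.5 CPM in control libraries. The ranges overlapped, and the difference was 0.21 ± 0.17 (adjusted p = 0.529).

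Rgs4, also of the R4 subfamily and a regulator of Gq and Gi signalling in neurons, differed at CT4 rather than at CT16 by the threshold. At CT4 it was counted at 166, 152 and 129 CPM in DKO and 87.8, 55.6 and 69.0 CPM in control libraries, with no overlap. The rise was 2.11-fold (log2 1.07 ± 0.23, edgeR, adjusted p = 0.0484). It lies close to the threshold and was lost in 17 of 27 alternatives, with 0.55 (adjusted p = 0.420) when the SCN neuron score was a covariate and 0.80 (adjusted p = 0.2635) with the neighbouring-nuclei score. At CT16 the values were 198, 138, 170.1 and 149 CPM in DKO and 102, 86.3, 127, 124 and 166 CPM in control libraries, which overlapped (0.43 ± 0.19, adjusted p = 0.221). The change of the genotype difference between the times was -0.64 ± 0.30 (adjusted p = 0.334). The other R4 members, Rgs2, Rgs3 and Rgs5, passed no test between genotypes.

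Rgs6 encodes an R7 protein. Proteins of the R7 subfamily bind the atypical beta subunit encoded by Gnb5 and act on the Gi and Go classes. Rgs6 lies on chromosome 12 (82617038 to 83158813, plus strand). At CT16 it was counted at 15.4, 18.1, 15.5 and 14.2 CPM in DKO and 6.55, 8.95, 7.69, 7.68 and 8.26 CPM in control libraries. At CT4 the values were 14.5, 15.7 and 14.1 CPM in DKO and 10.8, 9.39 and 8.15 CPM in control libraries. The DKO libraries were higher at both times without overlap, and the spread within groups was small. The rise was 1.01 ± 0.10 at CT16 (edgeR, adjusted p = 1.78e-05), which passed in all 27 alternatives, and 0.64 ± 0.13 at CT4 (adjusted p = 0.0245). The call at CT4 was lost in 7 of 27 alternatives, including those with the neighbouring-nuclei score (0.59, adjusted p = 0.122) and the SCN neuron score (0.52, adjusted p = 0.271) as a covariate, and those that left out 1 of 5 libraries at CT4.

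The other R7 genes moved less. Rgs9 fell by 0.23 on the log2 scale at CT16 (SE 0.06, adjusted p = 0.0410), with 98.1 to 114 CPM in DKO and 116 to 140.4 CPM in control libraries, and this call was lost in 14 of 27 alternatives. Rgs7, which acts with GPR158 and GPR179 at the membrane, had 24.9 to 35.6 CPM in DKO and 31.6 to 40.6 CPM in control libraries at CT16 (-0.24 ± 0.11, adjusted p = 0.228), and 37.6 to 40.3 CPM in DKO and 29.2 to 32.5 CPM in control libraries at CT4 (0.33 ± 0.13, adjusted p = 0.231). Rgs11 passed no test between genotypes (0.05 at CT4, -0.02 at CT16). Gnb5, their shared partner, passed none either.

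Rgs22, which encodes a protein with several RGS domains, rose by 0.65 ± 0.13 at CT16 (edgeR, adjusted p = 0.00802). It was counted at 10.4, 12.8, 13.8 and 12.0 CPM in DKO and 8.16, 6.64, 6.64, 9.49 and 8.12 CPM in control libraries, with no overlap. Without the 3 libraries that stood apart the rise was 0.57 (adjusted p = 0.0635). At CT4 the ranges were 9.70 to 12.9 CPM in DKO and 7.29 to 10.2 CPM in control libraries, and they overlapped (0.34 ± 0.16, adjusted p = 0.334). None of the R12 and RZ genes (Rgs10, Rgs12, Rgs14, Rgs17, Rgs19 and Rgs20) passed a test between genotypes.

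Rasl11b encodes a small GTPase of the Ras family. It lies on chromosome 5 (74195326 to 74199477, plus strand). At CT16 it was counted at 28.6, 67.2, 28.4 and 87.4 CPM in DKO and 10.9, 15.7, 7.86, 9.72 and 14.3 CPM in control libraries. All 4 DKO libraries lay above the control libraries, and DKO replicates 2 and 4 were high for both Rasl11b and Rgs16. These replicates also had the highest myelin scores (0.539 and 1.636) and SCN neuron scores (0.16 and 0.534) of their group. Whether this bears on both genes was not tested. The rise of Rasl11b was 2.17 ± 0.40 (edgeR, adjusted p = 0.00910). It passed in all 27 alternatives, with values of 1.66 (myelin score as a covariate) to 2.38. At CT4 Rasl11b was counted at 33.5, 36.4 and 33.8 CPM in DKO and 20.1, 51.3 and 51.9 CPM in control libraries. Control replicate 1 was again the low one (-0.25 ± 0.47, edgeR, adjusted p = 0.863). That estimate was 1.14 (adjusted p = 0.372) with the SCN neuron score as a covariate and 0.39 (adjusted p = 0.910) with the neighbouring-nuclei score.

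Rasd2 (Rhes), a Ras-like protein abundant in striatal neurons that acts on Gi signalling, was higher in DKO at both times. At CT16 it was counted at 118, 102, 74.5 and 85.1 CPM in DKO and 70.8, 57.8, 66.7, 75.5 and 65.3 CPM in control libraries, and the ranges met only at DKO replicate 3 and control replicate 4. The rise was 0.50 ± 0.11 (edgeR, adjusted p = 0.0157) and was lost in 3 of 27 alternatives; without the 3 libraries that stood apart it was 0.71 (adjusted p = 0.000119). At CT4 the values were 86.2, 88.1 and 85.6 CPM in DKO and 60.8, 59.8 and 65.1 CPM in control libraries, without overlap, with a difference of 0.49 ± 0.13 that did not pass (adjusted p = 0.0926). The 8 striatal markers summed to 299 to 353 CPM in DKO and 259 to 317 CPM in control libraries at CT16, and 1 of them, Ppp1r1b, rose (1.52 ± 0.23, adjusted p = 0.00159). Their part in the change of Rasd2 was not tested.

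**Figure D3:**
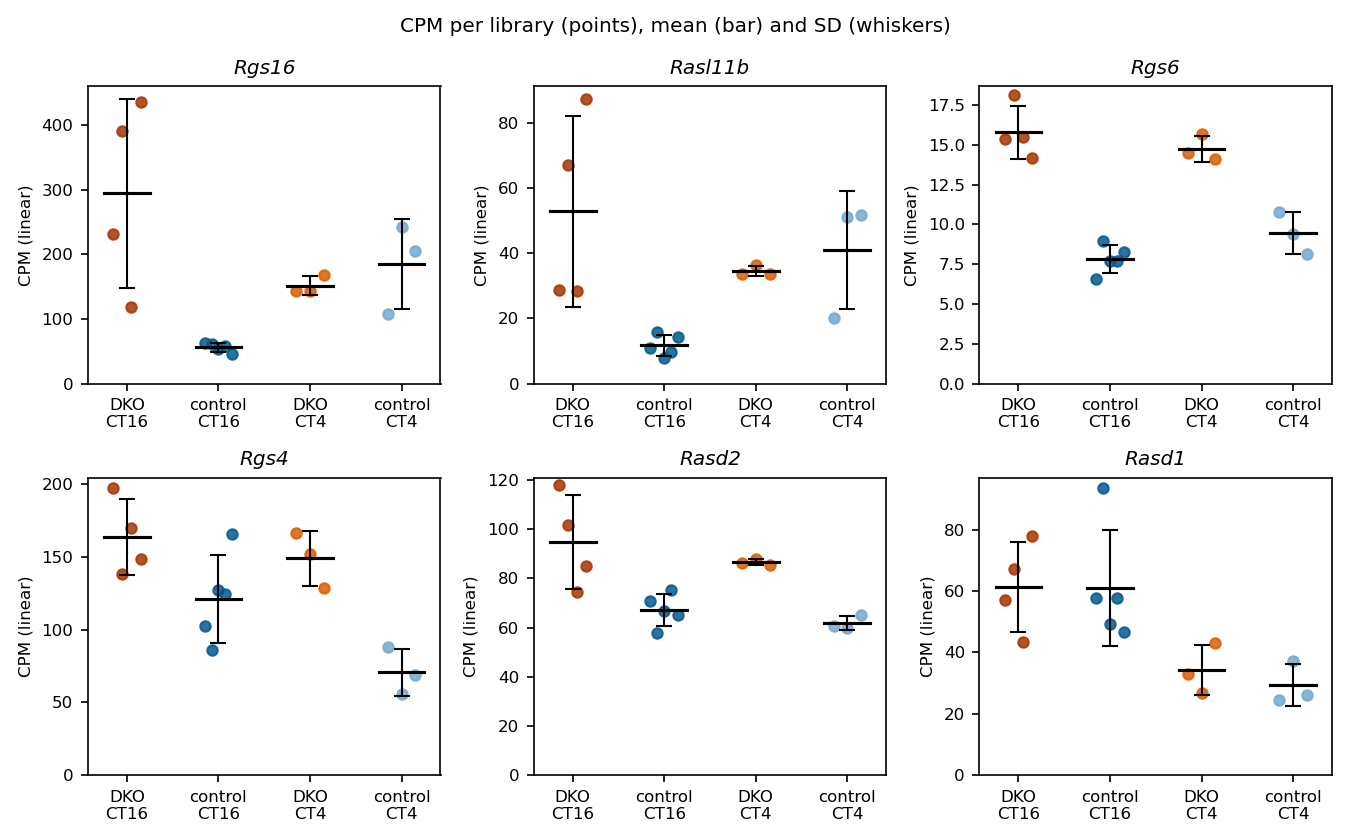
CPM (linear axis) of Rgs16, Rasl11b, Rgs6, Rgs4, Rasd2 and Rasd1 in each library, in the order DKO CT16, control CT16, DKO CT4 and control CT4; points are libraries, bars the group mean and whiskers the SD. The 4 DKO libraries at CT16 spread widely for Rgs16 (119 to 437 CPM) and closely for Rgs6 (14.2 to 18.1 CPM), and in both genes all lie above the 5 control libraries.

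Among the G alpha subunits, Gnas alone of 12 passed a test between genotypes. At CT16 it was counted at 2231, 1931, 1924 and 1950 CPM in DKO and 2172 to 2573 CPM in control libraries, with a median of 2454 CPM in the control libraries. DKO replicate 1 lay within the control range and the other 3 below it. The fall was -0.28 ± 0.06 (edgeR, adjusted p = 0.00895), and it was lost in 2 of 27 alternatives, among them the one without the 3 libraries that stood apart (-0.22, adjusted p = 0.112). At CT4 the difference was 0.03 ± 0.07. Gnas shares 111 exonic bases with Nespas on the opposite strand, and whether counting used strand is not stated in the labels. The Gi subunit Gnai2, the Gq subunit Gna11 and the G12 subunit Gna12 passed no test. Gnal, which encodes the olfactory form of Gs alpha, had 99.8 to 142 CPM in DKO and 131 to 166 CPM in control libraries at CT16 (-0.28 ± 0.09, adjusted p = 0.0922).

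Of the 10 G gamma subunits, 3 changed at CT16 by small amounts, and of the 4 G beta subunits 0 did. Gng12 rose by 0.39 ± 0.10 (edgeR, adjusted p = 0.0327), with 61.1 to 87.2 CPM in DKO and 48.8 to 62.6 CPM in control libraries. Gng7, the gamma partner of the olfactory G alpha in the striatum, rose by 0.25 ± 0.06 (adjusted p = 0.0215), with 63.8 to 82.4 CPM in DKO and 57.9 to 64.5 CPM in control libraries. Gng3, a neuronal subunit, fell by 0.22 on the log2 scale (SE 0.05, adjusted p = 0.0197), with 123 to 146 CPM in DKO and 145 to 165 CPM in control libraries. These calls were lost in 9, 6 and 6 of the 27 alternatives. DKO replicate 4, the library with the highest myelin score, had the highest Gng12 and Gng7 values and the lowest Gng3 value. With the myelin score as a covariate Gng12 and Gng3 kept their calls and Gng7 did not (0.21, adjusted p = 0.0535). Without DKO CT16 replicate 4 all of these calls were lost. The edgeR values were then 0.28 for Gng12 (adjusted p = 0.0838), 0.19 for Gng7 (adjusted p = 0.0678) and -0.17 for Gng3 (adjusted p = 0.0597). Without the 3 libraries that stood apart Gng12 (0.31, adjusted p = 0.113) and Gng3 (-0.17, adjusted p = 0.162) lost their calls, and Gng7 kept its call. Gng3 shares 398 exonic bases with Bscl2 on the opposite strand. The 3 Gpsm genes, led by Gpsm1, and both Gnb1l and Gnb2l1 passed no test between genotypes.

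At CT4, fewer members differed. Rgs6 and Rgs4 rose, 2 of 51 members (3.92%) beside 1.28% of all genes tested, and 0 members fell; over all genes 0.574% were higher and 0.710% lower. The median log2 fold change was 0.03, against 0.00 over all genes, and 41 members lay within 0.25 of 0. Besides Rgs6, Rgs4 and Rasd2, the members of next smallest p were Rgs5 (-0.26 ± 0.09, adjusted p = 0.178), a marker of pericytes, and Gnaq (0.15 ± 0.06, adjusted p = 0.214), which were named after their values were seen. Libraries did not overlap for 12 members, 23.5% beside 25.4% of all genes. The 10 SCN neuron markers had a median log2 fold change of -1.19 in this comparison, with 0 called and, as given above, summed levels that did not overlap. The markers of neighbouring nuclei summed to 942 to 1004.5 CPM in DKO and 509 to 897 CPM in control libraries, and those of pericytes and smooth muscle to 81.1 to 94.98 CPM in DKO and 95.8 to 107 CPM in control libraries, also without overlap. General neuron markers were higher in DKO without overlap (3074 to 3328 CPM against 2859 to 3017 CPM), as were ependymal ones (125 to 159 CPM against 95.8 to 119 CPM). Lower without overlap were astrocyte (3219 to 3260 CPM against 3457 to 3610 CPM) and endothelial markers (143 to 149 CPM against 155 to 173 CPM). Sums of the myelin, microglia and striatal markers overlapped. The part of these markers in the rise of Rgs4 and Rgs6 was not tested beyond the values with the SCN and neighbouring-nuclei scores as covariates.

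The comparison of CT16 with CT4 asked which members differed between subjective night and day within a genotype. In control mice, Rgs16 and Rasl11b were 3.30-fold and 3.50-fold lower at CT16 than at CT4, Gng7 was 1.20-fold lower, and Gnas was 1.18-fold higher. These 4 of 51 members (7.84%) stand beside 4.21% of all genes tested, with 2.13% of all genes higher and 2.08% lower. All 4 also passed between genotypes at CT16, with the opposite sign. Both comparisons share the control CT16 libraries, so they are not independent results. Libraries did not overlap for 10 members (19.6%), beside 15.8% of all genes. On the log2 scale the difference was -1.72 ± 0.36 for Rgs16 (edgeR quasi-likelihood test, adjusted p = 0.0231) and -1.81 ± 0.42 for Rasl11b (adjusted p = 0.0355). For both genes all control libraries at CT16 lay below all control libraries at CT4, with the CPM values given above. Rgs16 missed the threshold in 6 of 27 alternatives and Rasl11b in 10. Without control CT4 replicate 1, the low one of its group, both calls were kept. Without control CT4 replicate 2 both were lost (adjusted p = 0.104 for Rgs16 and 0.131 for Rasl11b), and likewise without control CT4 replicate 3 (adjusted p = 0.0804 and 0.126). Gng7 had 57.9 to 64.5 CPM at CT16 and 70.7 to 75.4 CPM at CT4 (-0.27 ± 0.06, adjusted p = 0.0283), and Gnas 2172 to 2573 CPM at CT16 and 2037 to 2094 CPM at CT4 (0.24 ± 0.06, adjusted p = 0.0367). The Gng7 call was lost in 6 alternatives and the Gnas call in 14. Rgs4 had 86.3 to 166 CPM at CT16 and 55.6 to 87.8 CPM at CT4, which overlapped, and did not pass (0.78 ± 0.21, adjusted p = 0.0624).

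Rasd1, a glucocorticoid-inducible Ras-like protein, had more counts at CT16 in both genotypes without passing the threshold. In DKO it was counted at 57.1, 67.2, 43.2 and 77.8 CPM at CT16 and 33.0, 26.6 and 43.0 CPM at CT4. In control it was counted at 57.8, 93.5, 49.3, 57.7 and 46.7 CPM at CT16 and 24.6, 37.3 and 26.2 CPM at CT4. Neither pair of groups overlapped. The difference was 0.84 ± 0.28 in DKO (edgeR, adjusted p = 0.144) and 1.05 ± 0.27 in control (adjusted p = 0.0522), and the control value passed in 9 of 27 alternatives. The 7 glucocorticoid-responsive genes listed summed to 746 to 1162 CPM at CT16 and 349 to 378 CPM at CT4 in DKO, and to 589 to 791 CPM at CT16 and 239 to 263 CPM at CT4 in control. In each genotype 6 of the 7 passed the threshold as higher at CT16, beside 1.29% of all genes in DKO and 2.13% in control. Between genotypes Rasd1 did not pass (0.00 at CT16 and 0.22 at CT4). Of the 7 glucocorticoid-responsive genes, 4 were higher in DKO at CT16 and 3 at CT4, beside 2.83% and 0.574% of all genes. Their part in the differences of Rasd1 was not tested. Rasd1 shares 126 exonic bases with Med9 on the opposite strand.

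In DKO mice, 0 of 51 members passed between CT16 and CT4, beside 1.80% of all genes. At an unadjusted p under 0.05 there were 5 members (beside 18.6% of all genes), and DESeq2 called 0 and limma voom 3. Shares of all genes were taken from the edgeR fit only, so the DESeq2 and voom counts stand without one. Gnal had 99.8 to 142 CPM at CT16 and 153 to 160 CPM at CT4 (-0.31 ± 0.10, adjusted p = 0.125), and Rgs7 24.9 to 35.6 CPM at CT16 and 37.6 to 40.3 CPM at CT4 (-0.34 ± 0.12, adjusted p = 0.148), both without overlap, as for 5 members (9.80%) in all beside 14.7% of all genes. Rgs16 was 0.96 ± 0.39 higher at CT16 (adjusted p = 0.220). Without DKO CT16 replicate 3 the difference of Rgs16 was 1.22 (adjusted p = 0.0293), and without the 3 libraries that stood apart 1.04 (adjusted p = 0.0224). It was 0.04 (adjusted p = 0.971) with the SCN neuron score as a covariate and -0.13 (adjusted p = 0.970) with the neighbouring-nuclei score. Of the DKO CT16 libraries, only replicate 3 had a neighbouring-nuclei score (0.911) within the range of the DKO CT4 libraries (0.594 to 1.073). The others had -0.796 or less. Without replicate 3, time and punch makeup in DKO therefore cannot be told apart.

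**Figure D4:**
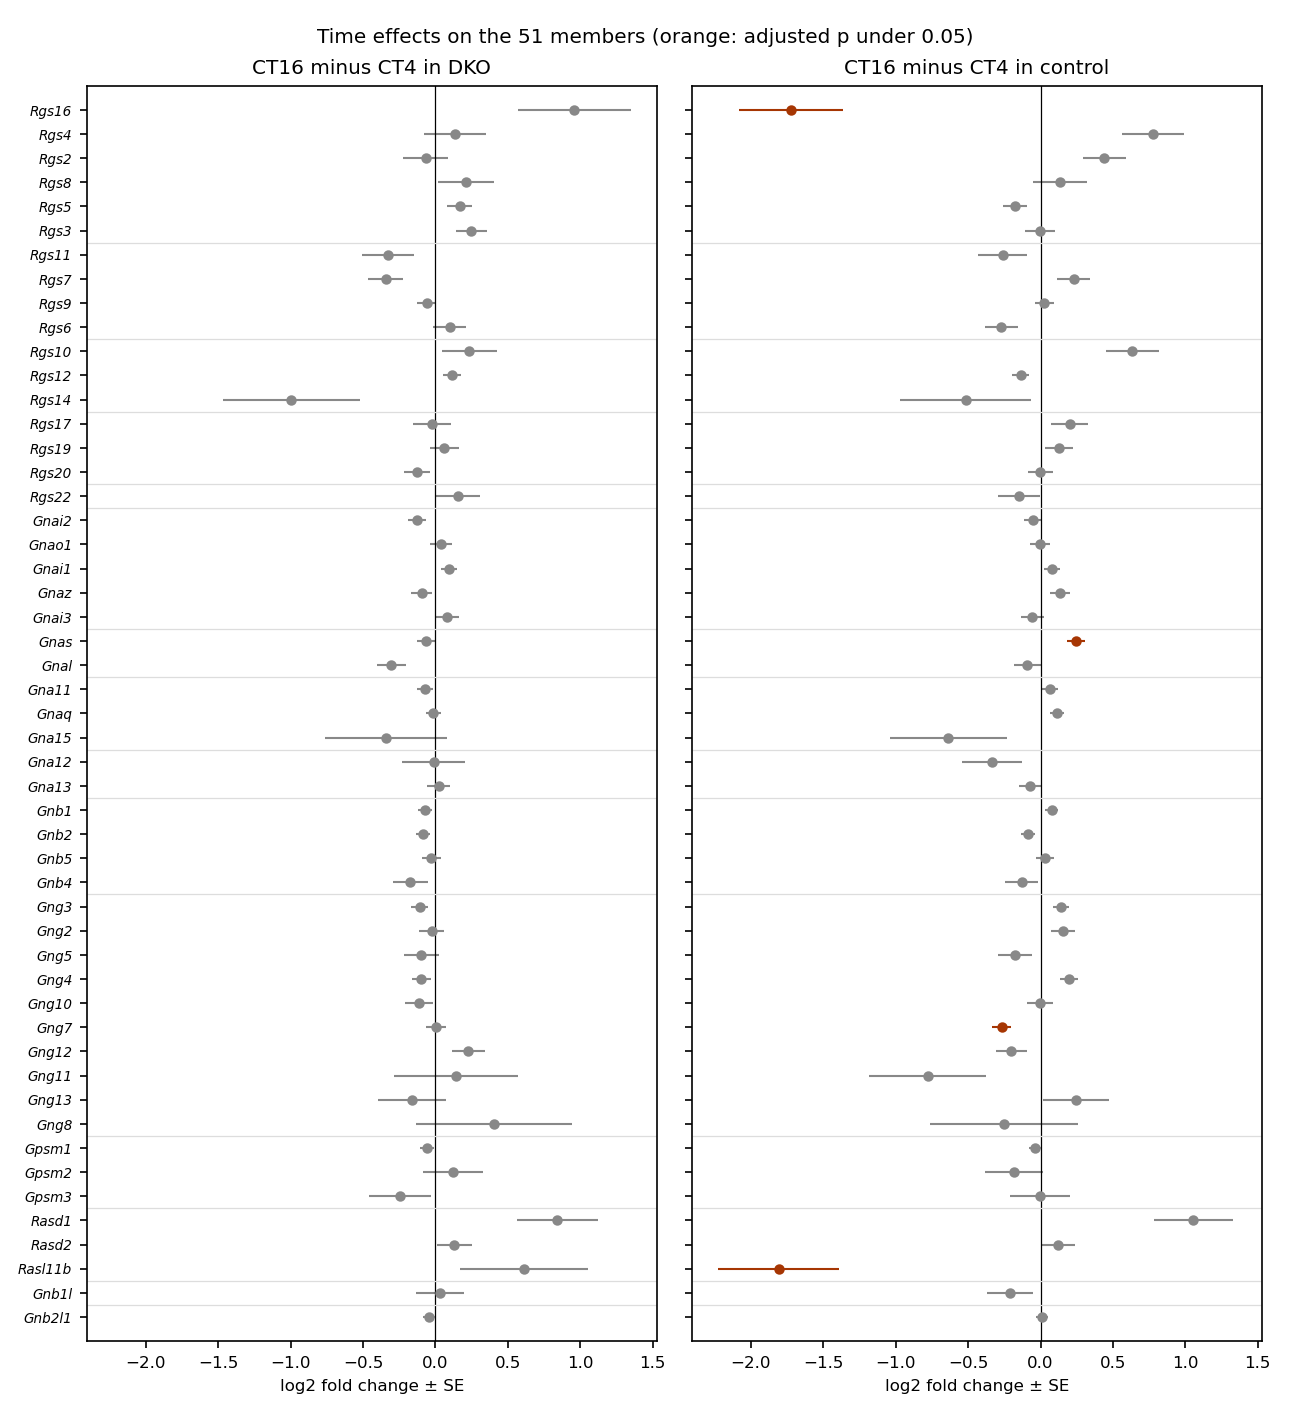
Log2 fold change ± SE of CT16 minus CT4 in DKO (left) and in control (right) for the 51 members, grouped by role; orange points passed an adjusted p of 0.05. In control, Rgs16 (-1.72), Rasl11b (-1.81) and Gng7 (-0.27) lie left of 0 and Gnas (0.24) right of it in orange, and in DKO no point is orange.

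Rgs16 and Rasl11b were lower at CT16 than at CT4 in control, whereas in DKO both estimates were above 0 (0.96 and 0.61), although with the neighbouring-nuclei score as a covariate they were -0.13 and -0.14, and with the SCN neuron score 0.04 and -0.27. The interaction, which tests this difference itself, was 2.68 ± 0.54 for Rgs16 (unadjusted p = 0.000365) and 2.42 ± 0.62 for Rasl11b (unadjusted p = 0.00221). Neither passed over all genes (edgeR quasi-likelihood test, adjusted p = 0.102 and 0.144). Only 0.0118% of all genes, and 0 of 51 members, did so, while 14 members had an unadjusted p under 0.05 (beside 15.1% of all genes), DESeq2 called 4 and limma voom 3. These shares of all genes are from edgeR, and none was taken for the DESeq2 and voom counts, which therefore cannot be read as a result about the members. For Rgs16 DESeq2 gave an adjusted p of 5.29e-05, and without DKO CT16 replicate 3 the edgeR value was 2.94 (adjusted p = 0.0105). That exclusion leaves DKO libraries whose punch makeup differed between the times, as given above. With the SCN neuron score as a covariate the Rgs16 interaction was 1.22 (adjusted p = 0.599), and with the neighbouring-nuclei score 1.30 (adjusted p = 0.511). For Rasl11b these covariates gave 0.97 (adjusted p = 0.892) and 1.41 (adjusted p = 0.757). Gnas (-0.31 ± 0.09, adjusted p = 0.150) and Rgs7 (-0.57 ± 0.17, adjusted p = 0.157) had the next smallest p.

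The makeup of the punches moved with some members. Rgs14, of the R12 subfamily, and Gng11, a gamma subunit, were chosen to show this after their values were seen. Rgs14 was counted at 5.09, 3.58, 15.85 and 4.25 CPM in DKO and 4.75 to 10.9 CPM in control libraries at CT16, and DKO replicate 3, its highest library there, also had the highest neighbouring-nuclei score of its group. Gng11 was counted at 4.15, 10.7, 6.83 and 20.02 CPM in DKO and 4.06 to 9.35 CPM in control libraries at CT16, and DKO replicate 4, with 20.02 CPM, had the highest myelin score. Rgs16 was lowest among DKO CT16 libraries in replicate 3, which had an SCN neuron score of -0.616, and highest in replicate 4, with a score of 0.534. All 16 markers of neighbouring nuclei but Kiss1 had counts in every library, as did all 9 markers of oligodendrocytes and myelin. The myelin markers summed to 3749 to 19345 CPM in DKO and 2815 to 9332 CPM in control libraries at CT16. Their part in these values was not tested.

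**Figure D5:**
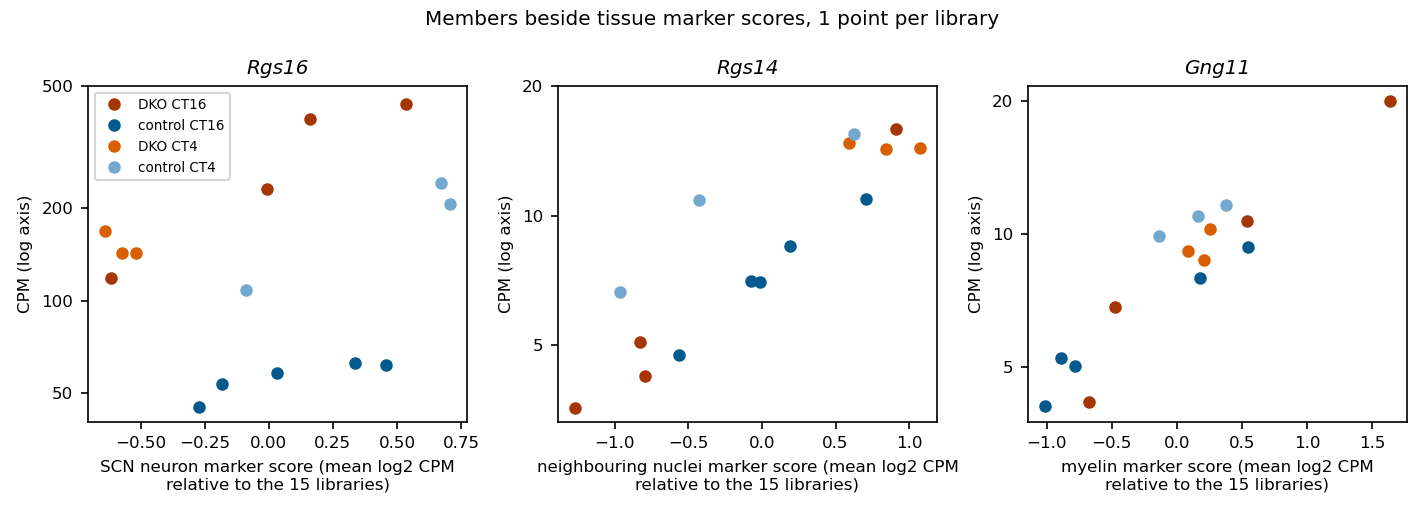
CPM (log axis) of Rgs16 against the SCN neuron score, of Rgs14 against the neighbouring-nuclei score and of Gng11 against the myelin score (mean log2 CPM of the markers, each relative to its mean over the libraries), with 1 point for each of the 15 libraries. Control CT16 libraries lie between 45.2 and 62.9 CPM of Rgs16 over a broad range of SCN scores, below all DKO CT16 libraries.

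Outside the members, 38 genes of the same pathways were tested. At CT16, 3 rose and 0 fell in DKO, beside 2.83% of all genes higher. They were Ccdc88c, which encodes Daple, a non-receptor activator of Gi (0.73 ± 0.10, edgeR, adjusted p = 0.000366), Gpr179, an orphan receptor that anchors RGS proteins (0.78 ± 0.18, adjusted p = 0.0259), and Plcb3, a phospholipase C beta (0.35 ± 0.07, adjusted p = 0.0118). At CT4, 0 rose and 2 fell, beside 0.710% of all genes lower, namely Snx14, a sorting nexin with an RGS-like domain (-0.33 ± 0.06, adjusted p = 0.0157), and the adenylyl cyclase gene Adcy3 (-0.32 ± 0.07, adjusted p = 0.0386). Between CT16 and CT4, 0 passed in DKO, beside 1.80% of all genes. In control 4 were lower at CT16, beside 2.08% of all genes, with Gpr179 at -1.02 ± 0.20 (adjusted p = 0.0107), the adenylyl cyclase gene Adcy8 at -0.48 ± 0.09 (adjusted p = 0.00559), the receptor kinase gene Adrbk2 at -0.23 ± 0.05 (adjusted p = 0.0196) and Plcb2 at -0.83 ± 0.22 (adjusted p = 0.0461). Gpr179 was thus higher in DKO than in control at CT16 and lower at CT16 than at CT4 in control; both comparisons share the control CT16 libraries. Gpr176, the Gz-coupled receptor of the SCN, and the G protein-gated potassium channel genes passed none of these tests.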

How the data were processed

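Total RNA of 15 pools of SCN punches was sequenced, per the labels' protocols. The authors deposited 1 table of raw counts, which are whole numbers for every gene and pool, next to exonic lengths in bases. Read processing used STAR, featureCounts and DESeq2 with build mm10, per the submitters' processing notes; the sources used here name no versions, annotation or strand setting. Since the labels do not identify the pooled mice, p-values reflect the variation among pools only. No 2 libraries of a group were alike within sampling noise.

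Counts were analysed with edgeR 4.0.16 in R 4.3.3. Filtering by filterByExpr left 16910 genes. TMM factors were used, and 1 model of 4 group means with 11 residual degrees of freedom was fitted to all libraries with the robust quasi-likelihood test, p-values being adjusted by Benjamini-Hochberg over all tested genes at 0.05. The size of a log2 fold change over the root of its F statistic gave its standard error. CPM used TMM-scaled library sizes. RPKM divides these by the deposited exonic length. Alternatives are given in the closing section; they include DESeq2 1.42.0 and voom of limma 3.58.1.

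Genes named were Rgs16, Rasl11b, Rasd1, every member called in any contrast, the most abundant member of each role, the 3 members of smallest p per contrast and called pathway genes. Members, lists and tests were chosen with earlier results of these data known. The steps were tested on simulated counts, in which genes varied independently and punch makeup did not differ between groups. The rates below therefore do not carry over to the comparisons of these libraries, whose makeup differed. For DKO against control at CT4, 41 of 67, 60 of 67 and 65 of 66 genes changed by 0.5, 1 and 2 (log2) were recovered among 16742 tested, with 6.21% of calls false; for the interaction 21 of 67, 47 of 67 and 61 of 66 were recovered among 16741, with 5.84% false. Promoter sequences are RefSeq's on GRCm38.p6, and exon overlaps come from the exon coordinates in the deposited table.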

Additional observations from a re-analysis of the deposited data

Results flagged for a closer look

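Of the groups of 4 or 5 libraries, 48 were examined for the 24 named members, and 3 held a library far from the others. Chance gives about 1 in 20 such groups. Gnas was counted at 2231 CPM in DKO CT16 replicate 1, against 1924 to 1950 CPM in the other 3 DKO libraries at that time. Gpsm1 was counted at 91.1 CPM in DKO CT16 replicate 4, against 98.9 to 99.8 CPM in the others, and this library also had the highest myelin score. Rgs10, of the R12 subfamily, was counted at 35.2 CPM in control CT16 replicate 2, against 54.1 to 61.9 CPM in the other 4. In control mice Rgs10 was 0.63 ± 0.18 higher at CT16 than at CT4 without passing (edgeR quasi-likelihood test, adjusted p = 0.0742), and without that library the difference was 0.75 (adjusted p = 0.00917). The causes were not tested.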

How the results depend on the processing

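The alternatives were RLE and upper quartile factors, DESeq2, limma voom with quality weights, no filter, a stricter filter (CPM of at least 1 in 3 libraries), a fit of only the groups compared, the replicate number as a block, myelin and neighbouring-nuclei scores as covariates and the removal of single libraries. The SCN neuron score as a covariate, and the exclusion of the 3 libraries that stood apart (control CT4 replicate 1 with DKO CT16 replicates 3 and 4), were chosen after seeing the data. Of 16 calls on named members, 3 passed in every alternative, namely those of Rgs16, Rasl11b and Rgs6 at CT16. The other 13 were lost in at least 1. Shares of all genes were taken from the main fit only, so the counts of members under the alternatives below stand without one. At CT4, where 2 members passed, upper quartile factors, no filter and the SCN score gave 1 each, the fit of the groups alone 4, and the neighbouring-nuclei score 0. At CT16, with 10, the groups alone gave 4 and the exclusion of the 3 libraries 5. Between CT16 and CT4 in DKO, with 0, voom gave 3, the myelin score 2 and the exclusion 5; in control, with 4, DESeq2, voom and the neighbouring-nuclei score gave 9 each, the myelin score 7 and the replicate block 1. For the interaction, with 0, DESeq2 gave 4, voom 3, the myelin score 1 and the exclusion 2. Leaving out 1 library gave 0 to 3 members at CT4, 5 to 13 at CT16 (5 without DKO CT16 replicate 2), 0 to 5 over time in DKO (5 without DKO CT16 replicate 3), 0 to 7 over time in control, and 0 to 1 for the interaction. The count was 0 at CT4 without any 1 DKO CT4 library or control CT4 replicate 2 or 3, and 0 over time in control without control CT4 replicate 2 or 3 or control CT16 replicate 3. Among values called with or without the change, 1 changed sign, that of Rgs11 at CT4, which was 0.05 and became -0.56 (edgeR, adjusted p = 0.0424) with the SCN score. Values called in neither also changed sign, among them those of Rgs16 and Rasl11b at CT4 and over time in DKO, given above. The causes were not tested.

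The labels do not state whether equal replicate numbers pair the libraries. Of 19 same-numbered pairs in different groups, 5 had a correlation of deviations over 0.1 (range -0.336 to 0.280). Pairs with different numbers were not examined, so these values cannot decide it. With the replicate block, which leaves 7 residual degrees of freedom, 2 members passed at CT4, 8 at CT16, 0 over time in DKO, 1 over time in control and 0 for the interaction. Groups of 3 to 5 pools limit what small changes can be seen, and 9 members share exonic bases with another gene.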
